A study of Mus musculus with 12 samples.

Results

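The genes examined encode the ionotropic glutamate receptors outside the NMDA class: the AMPA receptor subunits Gria1 to Gria4, the kainate receptor subunits Grik1 to Grik5 and the delta receptor subunit Grid1. All probe sets annotated to these symbols were taken, which gave 14 of the 12488 probe sets on the array. They represent 8 of the 8252 genes with a probe set of a single symbol, since no probe set carried the name of Grik3 or Grik4. The samples were RNA pools from the whole cerebellum of euploid mice and of Ts1Cje mice, which carry a segmental trisomy of chromosome 16, at postnatal days 0, 15 and 30 (P0, P15 and P30). RNA of 3 cerebella went into each pool (2 for euploid P30), and 2 Affymetrix arrays were hybridised with it. There was 1 pool per genotype and stage, so the 2 arrays of a pool repeat the hybridisation and not the animals. The sources used here give neither strain background nor sex.

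AMPA receptors are tetramers of the Gria subunits and carry most fast excitatory transmission in the brain. A channel that contains Gria2, after editing of its transcript in the pore-coding part, passes little calcium, while channels without it pass calcium. Kainate receptors are built from Grik1, Grik2 or Grik3, alone or with Grik4 or Grik5, which do not form working channels by themselves. Delta receptors bind cerebellins and shape synapses. In the cerebellum, granule cells and Purkinje cells receive AMPA receptor input, and Bergmann glia carry AMPA receptors of Gria1 and Gria4 without Gria2.

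Signals are MAS5 units with trimmed means that are nearly equal between arrays, and differences are on the log2(signal + 4.6) scale, on which the change of a dim gene is understated. Median signal per array was 30.4 to 36.2. Over the 7453 probe sets that passed a filter on mean signal, arrays of 1 pool correlated with a median Pearson r of 0.972 across probe sets (6 pairs), against 0.967 for arrays of the same stage and the other genotype (12 pairs). One pool stood apart in Xist, a noncoding RNA made by the inactive X, which read 77.6 and 105.6 on the arrays of the Ts1Cje P15 pool and 1.4 to 6.7 on the other 10 arrays. This bears on Gria3, which lies on the X chromosome. Sod1, at the proximal edge of the trisomic segment, read higher on both Ts1Cje arrays than on both euploid arrays at each stage (683.2 and 675.9 against 426.9 and 445.8 at P0). Of the 14 probe sets, 13 passed the filter, among them at least 1 for each of the 8 genes. The exception was the Gria2 probe set 162076_r_at, which read 0 to 1.2 on every array. Gria4 averaged 11.5 over the 4 arrays of P0, below the filter limit of 20.1, and passed through its signal at P15 and P30. For each gene, the probe set of highest mean signal stands for it below. Levels are compared between arrays of the same probe set and not between genes.

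Between P0 and P30 the family parted into 3 courses. Gria1, Gria3, Gria4 and Grik2 rose, Grik1, Grik5 and Grid1 fell, and the bright probe set of Gria2 stayed within 724.4 to 979 on all 12 arrays. The model held genotype and stage over the 6 pools. Limma called 6 of the 8 genes between P0 and P15 at an adjusted p of 0.05, 3 higher and 3 lower, where 28% of all probe sets were called (13.6% higher and 14.4% lower). Between P15 and P30 it called 0 of the 8, with 2 at an unadjusted p under 0.05, where 4.74% of all probe sets were called (1.61% higher and 3.13% lower). Between P0 and P30 it called 7 of the 8, 4 higher and 3 lower, where 39% were called (19.4% higher and 19.6% lower). Gria4 is in both counts and had passed the filter only through the stages where it is high, so its call is no support for them. Without the Ts1Cje P0 pool the P0 to P15 count was 3, and with the second hybridisation alone it was also 3. The median difference between P0 and P30 was 0.31 for the 8 genes and 0.036 for all probe sets.

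**Figure D1:**
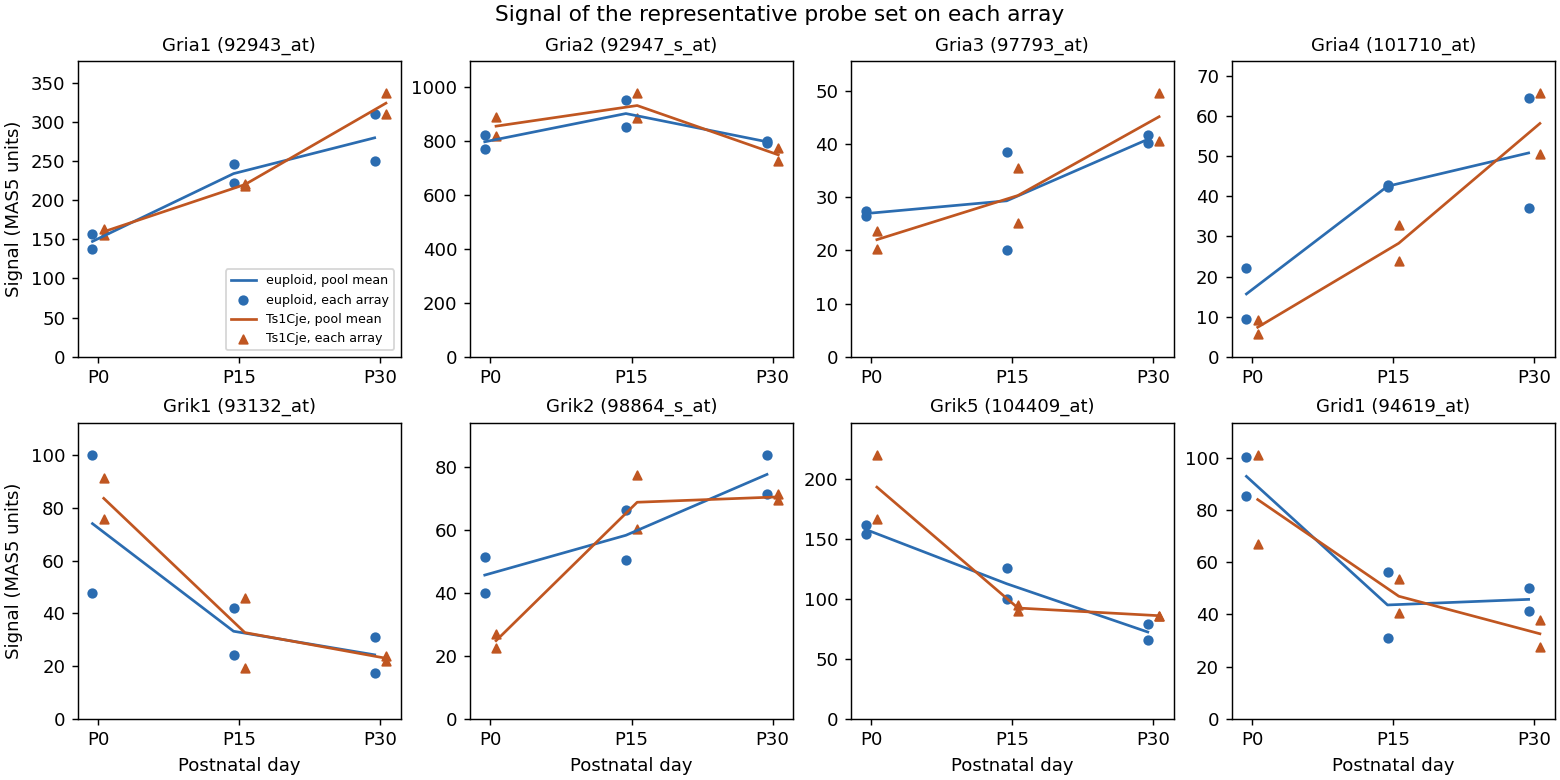
Signal of the representative probe set of each of the 8 genes against postnatal day, with 1 point per array (circles euploid, triangles Ts1Cje) and lines through the means of the 2 arrays of a pool. Gria1, Gria3, Gria4 and Grik2 end higher than they start, Grik1, Grik5 and Grid1 end lower, and Gria2 stays between 724.4 and 979.

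To set the courses beside the genes' starts, the 250 bases before the RefSeq start site are printed for 1 member of each course. These are Gria2, which did not change by the test in its brightest probe set, Gria4, which rose, and Grik5, which fell. RefSeq windows (build GRCm38.p6) were found for 6 genes, Gria2, Gria4, Grik2, Grik3, Grik4 and Grik5, and not for Gria1, Gria3, Grik1 and Grid1. The sequences run 5′ to 3′ on the gene's strand, which is the minus strand for all 3. Capitals mark an RE1 core in Gria2 and GC boxes in Grik5.
Gria2, chr3:80802836-80803085: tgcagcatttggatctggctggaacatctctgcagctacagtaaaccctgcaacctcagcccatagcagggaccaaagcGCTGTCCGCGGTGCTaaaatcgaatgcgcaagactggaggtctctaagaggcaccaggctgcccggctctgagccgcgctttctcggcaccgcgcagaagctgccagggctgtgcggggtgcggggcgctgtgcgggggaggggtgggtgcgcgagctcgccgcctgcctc
Gria4, chr9:4796235-4796484: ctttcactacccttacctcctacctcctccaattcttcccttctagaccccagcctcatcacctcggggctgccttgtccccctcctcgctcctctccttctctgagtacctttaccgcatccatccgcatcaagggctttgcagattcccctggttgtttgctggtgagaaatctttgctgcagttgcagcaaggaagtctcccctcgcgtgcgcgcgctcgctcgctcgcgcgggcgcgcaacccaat
Grik5, chr7:25072370-25072619: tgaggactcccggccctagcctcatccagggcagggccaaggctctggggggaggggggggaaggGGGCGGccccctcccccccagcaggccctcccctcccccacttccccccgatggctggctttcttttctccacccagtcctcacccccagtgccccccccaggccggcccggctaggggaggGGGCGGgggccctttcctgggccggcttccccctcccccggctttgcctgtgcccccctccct

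RE1 is the element bound by REST, a repressor of neuronal genes, and was described in the promoter of the rat Gria2 gene. It was searched on both strands as AGCACC followed after any 2 bases by GGACAGC, letters chosen after the Gria2 window had been read. In the Gria2 window the match lies on the opposite strand and begins 171 bases before the start site. Of 32851 windows of the same length, 9 held this core (0.0274%), and of the 6 receptor windows only that of Gria2 did. The GC box GGGCGG, a binding site of Sp1, was found in either orientation in 32.7% of windows. It occurred 2 times in Grik5, 6 times in Grik3 and 1 time in Grik4. TATAAA, the TATA box, was found in 12.4% of windows and in 0 of the 6. The GC content was 64.8% for Gria2, 58.8% for Gria4, 62.8% for Grik2 and 75.2% for Grik5, where the median window had 52.4%. These matches describe letters in a window, and binding was not measured.

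Among the AMPA subunits, Gria1, the subunit that enters synapses during potentiation in the hippocampus and is carried by Bergmann glia in the cerebellum, rose between P0 and P30. Its euploid arrays read 137.5 and 157.2 at P0, 245.8 and 222.2 at P15, and 249.5 and 310 at P30. Its Ts1Cje arrays read 163.3 and 156.2, then 218.7 and 221.3, then 337.3 and 310.7. All 4 arrays of P30 lay above all 4 of P15, and these above all 4 of P0. The difference between P0 and P30 was 0.95 ± 0.15 (log2 difference ± SE, 2 pools per stage, limma adjusted p = 0.0016), or 1.93-fold, with 0.90 in euploid and 0.999 in Ts1Cje pools. Between P0 and P15 it was 0.55 ± 0.15 (adjusted p = 0.0288), and between P15 and P30 it was 0.40 ± 0.15 (adjusted p = 0.183). The P0 to P15 call was lost without each of 5 pools in turn, all but the Ts1Cje P15 pool (adjusted p = 0.0533 to 0.143), while the P0 to P30 call held in all 17 alternative settings.

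A further, dimmer Gria1 probe set, 92944_at, gave the same calls. It read 44.9 to 72.2 at P0, 73.9 to 117.5 at P15 and 139.2 to 183.8 at P30. Its difference was 1.37 ± 0.19 between P0 and P30 (adjusted p = 0.000684) and 0.67 ± 0.19 between P0 and P15 (adjusted p = 0.03). Between P15 and P30 it was 0.70 ± 0.19 (adjusted p = 0.0778). The arrays of the 3 stages did not overlap in this probe set either.

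Gria2, the subunit that makes AMPA channels nearly impermeable to calcium, did not change by the test in its brightest probe set, 92947_s_at. In euploid pools it read 823.2 and 771.2 at P0, 951.7 and 852.1 at P15, and 794.5 and 799.9 at P30. In Ts1Cje pools it read 890.5 and 819.8, then 884.3 and 979, then 773.3 and 724.4. The arrays of P15 overlapped those of P0 and lay above those of P30, and the arrays of P30 overlapped those of P0. The P0 to P15 difference was 0.15 ± 0.13, with a 95% confidence interval of -0.15 to 0.45 (adjusted p = 0.438). The P15 to P30 difference was -0.24 ± 0.13 (-0.54 to 0.053, adjusted p = 0.315), and the P0 to P30 difference was -0.095 ± 0.13 (-0.39 to 0.20, adjusted p = 0.596).

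The remaining Gria2 probe sets did not share one course. Probe set 92945_at fell between P15 and P30, by 0.89 ± 0.17 (adjusted p = 0.03), and was also called lower between P0 and P30 (-0.72 ± 0.17, adjusted p = 0.0111). Its arrays read 158 to 294.9 at P0, 196.1 to 344.7 at P15 and 112.8 to 176.9 at P30. Its hybridisations were far apart: the first array was brighter in all 4 pools of P0 and P15 and dimmer in both of P30, by ratios of 1.29 to 1.78. Probe set 92946_f_at, a design that may share probes with related sequences, read 49.6 to 79.3 at P0, 73.2 to 98.3 at P15 and 73.1 to 90.6 at P30. Its differences of 0.40 ± 0.17 from P0 to P15 and 0.31 ± 0.17 from P0 to P30 were not called (adjusted p = 0.113 and 0.185). A Gria2 decline by P30 thus rested on 92945_at, 1 of the 3 measurable probe sets.

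Gria4, the subunit with the fastest channel kinetics and the partner of Gria1 in Bergmann glia, was near or below the filter limit at P0 and rose afterwards. On the euploid arrays it read 9.3 and 22 at P0, 42.2 and 42.8 at P15, and 64.6 and 37 at P30. On the Ts1Cje arrays it read 5.6 and 9.1, then 32.8 and 23.8, then 50.5 and 65.8. Every array of P15 and P30 lay above every array of P0, while P15 and P30 overlapped. The difference between P0 and P30 was 1.94 ± 0.27 (adjusted p = 0.000748). Its size depended on the setting, from 1.37 with a pseudocount of 16 to 2.38 with the first hybridisation alone. Between P0 and P15 it was 1.38 ± 0.27 (adjusted p = 0.00619), and it was not called from P15 to P30 (0.56 ± 0.27, adjusted p = 0.269). With the second hybridisation alone, the P0 to P15 call was lost (0.94, adjusted p = 0.15), and P0 signals this low give only a rough ratio.

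Gria3, the X-linked subunit, was dim and was called higher at P30 than at P0. The euploid arrays read 27.3 and 26.5 at P0, 38.5 and 20.1 at P15, and 40.1 and 41.6 at P30. The Ts1Cje arrays read 23.7 and 20.3, then 35.5 and 25.1, then 40.6 and 49.6. All arrays of P30 lay above all others, and the arrays of P15 spanned those of P0. The P0 to P30 difference was 0.71 ± 0.21 (adjusted p = 0.0293), and neither interval alone was called (0.21 ± 0.21 and 0.50 ± 0.21). The P0 to P30 call held in 10 of 16 alternative settings and was lost without the Ts1Cje pool of P0 (0.54, adjusted p = 0.172) or of P30 (0.61, adjusted p = 0.255), without the euploid pool of P30 (0.82, adjusted p = 0.0988), with either hybridisation alone and without the signal filter.

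Of the kainate subunits, Grik1, which can form channels without Grik4 or Grik5, fell between P0 and P15. In euploid pools it read 100.2 and 47.9 at P0, 42.1 and 24.3 at P15, and 17.3 and 31.2 at P30. In Ts1Cje pools it read 91.4 and 75.9, then 46 and 19.4, then 22 and 23.9. Every array of P0 lay above every array of P15 and P30, which overlapped. The difference was -1.17 ± 0.20 from P0 to P15 (adjusted p = 0.00309) and -1.54 ± 0.20 from P0 to P30 (adjusted p = 0.000499, 2.91-fold). Both calls held in all 16 alternative settings, but the size of the P0 to P30 fall ranged from -2.06 with the first hybridisation alone to -1.02 with the second alone. Between P15 and P30 the pooled value was -0.37 ± 0.20 (adjusted p = 0.325). That value was -1.01 and called with the first hybridisation alone (adjusted p = 0.0281), and 0.28 and not called with the second alone.

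Grik5, the high-affinity subunit that needs a partner to form a channel, fell between P0 and P15 and was lowest at P30. On the euploid arrays it read 154.5 and 161.9 at P0, 125.8 and 99.8 at P15, and 79 and 65.9 at P30. On the Ts1Cje arrays it read 166.5 and 220.6, then 94.9 and 90.1, then 86.1 and 86.1. The arrays of the 3 stages did not overlap. The difference was -1.10 ± 0.19 from P0 to P30 (adjusted p = 0.002), -0.75 ± 0.19 from P0 to P15 (adjusted p = 0.018) and -0.35 ± 0.19 from P15 to P30 (adjusted p = 0.313). The P0 to P15 call was lost without the Ts1Cje P0 pool (-0.61, adjusted p = 0.112) or the Ts1Cje P15 pool (-0.49, adjusted p = 0.118), and with the mean of both Grik5 probe sets the value was -0.15 (adjusted p = 0.611). The other Grik5 probe set, 162074_r_at, did not follow this course (-0.035 ± 0.33 from P0 to P30). It varied from 10.9 to 80 between the arrays of the euploid P30 pool, a ratio of 7.34.

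Grik2, the main kainate subunit of granule cells, rose while Grik1 and Grik5 fell. In probe set 98864_s_at the euploid arrays read 39.9 and 51.4 at P0, 66.2 and 50.4 at P15, and 83.9 and 71.4 at P30. The Ts1Cje arrays read 27 and 22.6, then 77.4 and 60.2, then 71.5 and 69.5. The arrays of P30 lay above those of P0, with 1 array of P15 below the brightest of P0. The difference was 1.04 ± 0.25 from P0 to P30 (adjusted p = 0.0103) and 0.82 ± 0.25 from P0 to P15 (adjusted p = 0.038). The Ts1Cje P0 pool was the lowest, and without it the differences were 0.63 (adjusted p = 0.0825) and 0.41 (adjusted p = 0.269), and neither was called. Without the Ts1Cje P15 pool the P0 to P15 value was 0.48 (adjusted p = 0.246). The second probe set, 98863_at, had a smaller difference that was not called (0.55 ± 0.23 from P0 to P30, adjusted p = 0.0865).

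Grid1, a delta receptor subunit, was called lower at P15 and at P30 than at P0. The euploid arrays read 85.6 and 100.4 at P0, 31 and 56.3 at P15, and 41.3 and 50.3 at P30. In Ts1Cje pools it read 66.9 and 101.3, then 40.4 and 53.6, then 27.5 and 37.7. Every array of P0 lay above every later array, and P15 and P30 overlapped. The difference was -0.91 ± 0.20 from P0 to P15 (adjusted p = 0.0105), -0.18 ± 0.20 from P15 to P30 (adjusted p = 0.625) and -1.10 ± 0.20 from P0 to P30 (adjusted p = 0.00299). The P0 to P15 call was lost without the euploid P15 pool (-0.69, adjusted p = 0.0673). In all 6 pools the second hybridisation was the brighter one, by ratios of 1.17 to 1.82.

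**Figure D2:**
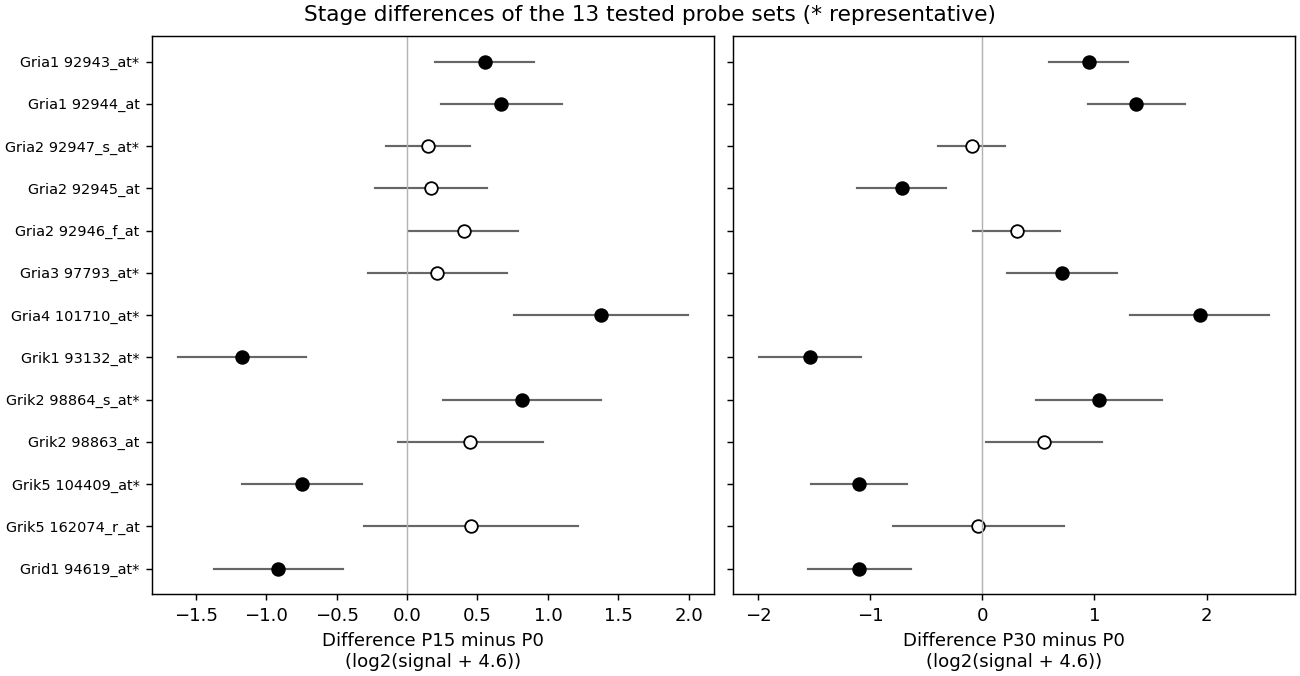
Differences from P0 to P15 (left) and from P0 to P30 (right) for the 13 tested probe sets on the log2(signal + 4.6) scale, with lines for 95% confidence intervals of the model and filled points for an adjusted p below 0.05. Both Gria1 probe sets lie on the same side, while those of Gria2 spread from -0.72 to 0.31 at P30 and those of Grik5 differ.

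Summed signals of cell type markers differed between stages as well, and in bulk RNA fewer cells of a type and less RNA per cell cannot be told apart. Purkinje cell markers (7 of 8 on the array) summed to 780 to 1030.2 per array at P0, 6664.2 to 8639.5 at P15 and 8293.8 to 8861.3 at P30. Mature granule cell markers (6 of 8) summed to 991.6 to 1180.1, then 5196.1 to 6641.4, then 6774.3 to 7107.5. At P0 the granule cell sum came mostly from Cbln1 (402.4), Kcnd2 (361.3) and Calb2 (258.1), while Gabra6, a defining marker of mature granule cells, averaged 1.38. In the Purkinje cell list Ppp1r17 averaged 4.33 at P0, and Calb1 83.2. Bergmann glia and astrocyte markers (9 of 10) summed to 6895.7 to 7576.7, then 10883 to 12720.9, then 10749.9 to 11308.8. From P0 to P30, limma called 7 members of this list higher and 1 lower, where 19.4% and 19.6% of all probe sets were. The lower one, Fabp7, was the brightest member at P0 and averaged 3122, then 2081, then 456.2. Oligodendrocyte markers (6 of 7, with Cnp below the filter) went from 114.4 to 165 at P0 to 5239.4 to 5853.3 at P15 and 4546.2 to 5081.2 at P30. Interneuron markers (5 of 6, with Pax2 below the filter) summed to 1855 to 2432.6 at P0, 2220.6 to 2763.1 at P15 and 2678.8 to 2977.3 at P30. Granule progenitor markers (6 of 8, with Atoh1, Gli1 and Ccnd2 below the filter) summed to 199.3 to 280 at P0, 245 to 419.9 at P15 and 135.5 to 177.4 at P30. Its members went both ways from P0 to P15, with Pax6 averaging 76.2 and then 226.4, and Mki67 51.9 and then 22.2. Choroid plexus and meninges markers (9 of 9) summed to 2984 to 4239.5 at P0, 2855 to 4286.6 at P15 and 5434 to 7324.9 at P30. From P15 to P30, limma called 4 members of this list higher and 2 lower, where 1.61% and 3.13% of all probe sets were. Among the 4, Kl averaged 14.8 and then 79.7 and had passed the filter only through P30, so its call is no support. Folr1 averaged 13.9 at P15, below the filter limit, and 68.3 at P30. Ptgds averaged 1271 and then 3502, and Ttr 129 and then 763.2. The 2 lower were the collagen genes Col1a1 (220.2, then 72.8) and Col3a1 (60.85, then 26.05). Markers of neighbouring brain regions (8 of 13, with Hoxb3 below the filter) summed to 1297.4 to 1548.6 at P0, 167.4 to 460.8 at P15 and 216.1 to 272.5 at P30. At P0 this sum came mostly from Sst (724.3) and Shox2 (329.4). From P0 to P15, limma called 6 members of the list lower, where 14.4% of all probe sets were. Th, which averaged 47.3 and then 43.85, was not called. Slc6a4 (89.8 at P0, 7.48 at P15) and Gata3 (86.35, then 6.38) had passed the filter only through their signal at P0. Their calls as lower are therefore no support. The summed markers of neighbouring regions thus fell over the same interval as Grik1, Grik5 and Grid1. Their part in the courses of the receptor genes was not tested.

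Between genotypes, no receptor gene differed by the test over the 3 stages. Limma called 0 of the 8 genes and 0 of all 7453 probe sets (0%). At an unadjusted p under 0.05 there were 0 of the 8 and 217 of all probe sets. The fit on 12 arrays with the pool as a random block also called 0 of the 8, with 14 of all probe sets. Gria1 had a Ts1Cje minus euploid difference of 0.082 ± 0.13 (95% interval -0.20 to 0.37) and Gria2 of 0.019 ± 0.11 (-0.22 to 0.26), both with adjusted p = 1. For Grik1 it was 0.048 ± 0.16 (-0.32 to 0.42). Grik1 is a gene of chromosome 16, but lies proximal of Sod1 and so outside the segment that is present in an added copy. The most negative values were those of Gria4, -0.34 ± 0.22 (-0.84 to 0.17), and Grik2, -0.22 ± 0.20 (-0.68 to 0.23). Gria3 had -0.014 ± 0.18, Grik5 0.082 ± 0.15 and Grid1 -0.16 ± 0.16. A steady change of the genotype difference with postnatal day was called for 0 of the 8 genes and 0 of all probe sets (0%), with 0 and 193 at an unadjusted p under 0.05. The largest such change was that of Gria4, 0.92 ± 0.50 over the 30 days (adjusted p = 1). It was 0.12 with the first hybridisation alone, below the 0.41 of Grik1 there, and 1.72 with the second alone.

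Within a stage 1 pool stood against 1 pool, so the values have no test. At P0, the arrays of the genotypes did not overlap for 4 of the 8 genes, with 1 higher in Ts1Cje, where 22.4% of all probe sets were higher without overlap, and 3 lower, where 21.9% were. Grik2 read 27 and 22.6 in Ts1Cje against 39.9 and 51.4 in euploid arrays, or -0.77, with -0.52 in its second probe set. Gria4, with 5.6 and 9.1 against 9.3 and 22, had -0.70, and its nearest arrays were 9.1 and 9.3. Which of these genes differed more depended on the pseudocount, since with 1 in place of 4.6 Gria4 had -0.91 and Grik2 -0.85. At 4.6, both lay below the 5th percentile of all probe sets at that stage, -0.56. Gria3 was also lower without overlap (-0.25), and Grik5 higher (0.27). Gria1 (0.12), Gria2 (0.10), Grik1 (0.25) and Grid1 (-0.16) overlapped.

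At P15, 0 of the 8 genes were higher in Ts1Cje without overlap, where 21% of all probe sets were, and 3 were lower, where 18.5% were. These 3 were Gria4 (32.8 and 23.8 against 42.2 and 42.8, or -0.53), Grik5 (-0.27) and Gria1 (-0.085). The other Grik5 probe set, 162074_r_at, was higher in Ts1Cje at this stage without overlap (42.8 and 79.9 against 33.2 and 26.5, or 0.88), and the other Gria1 probe set stood at 0.28 with overlap. Grik2, low at P0, stood at 0.22 with overlapping arrays. Gria3, the X-linked gene, stood at 0.081 in this pool with Xist signal, also with overlap. Purkinje cell markers summed to 6664.2 and 7218.7 in the Ts1Cje P15 pool against 8639.5 and 8612 in the euploid pool, and mature granule cell markers to 5196.1 and 5359.4 against 6399.9 and 6641.4. Markers of neighbouring brain regions, of which Sst was the brightest at P15 (147.4 on average), summed to 391.9 and 460.8 against 167.4 and 204.2. Single members differed, from -0.55 (Car8) to 0.046 (Ppp1r17) in the Purkinje cell list and from -0.81 (Grin2c) to 0.042 (Calb2) in the granule cell list. In the list of neighbouring regions they ranged from -0.17 (Hoxb3, below the filter) to 1.93 (Shox2). The part of these markers in the receptor differences was not tested.

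At P30, 2 of the 8 genes were higher without overlap, where 19.6% of all probe sets were, and 2 lower, where 19.8% were. Grik5 (86.1 and 86.1 against 79 and 65.9, or 0.24) and Gria1 (0.22) were higher, and Grid1 (27.5 and 37.7 against 41.3 and 50.3, or -0.45) and Gria2 (-0.090) lower. The second Gria1 probe set pointed the other way at this stage, with 139.2 and 162.3 in Ts1Cje against 168.8 and 183.8 in euploid arrays (-0.22), also without overlap. Gria4, lower at P0 and P15, read 50.5 and 65.8 against 64.6 and 37, or 0.22 with overlap. Of the 8 genes, 0 differed without overlap in the same direction at all 3 stages. Differences of the 2 hybridisation pairs reached as far apart as -0.33 and 0.76 for Gria4 at P30.

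**Figure D3:**
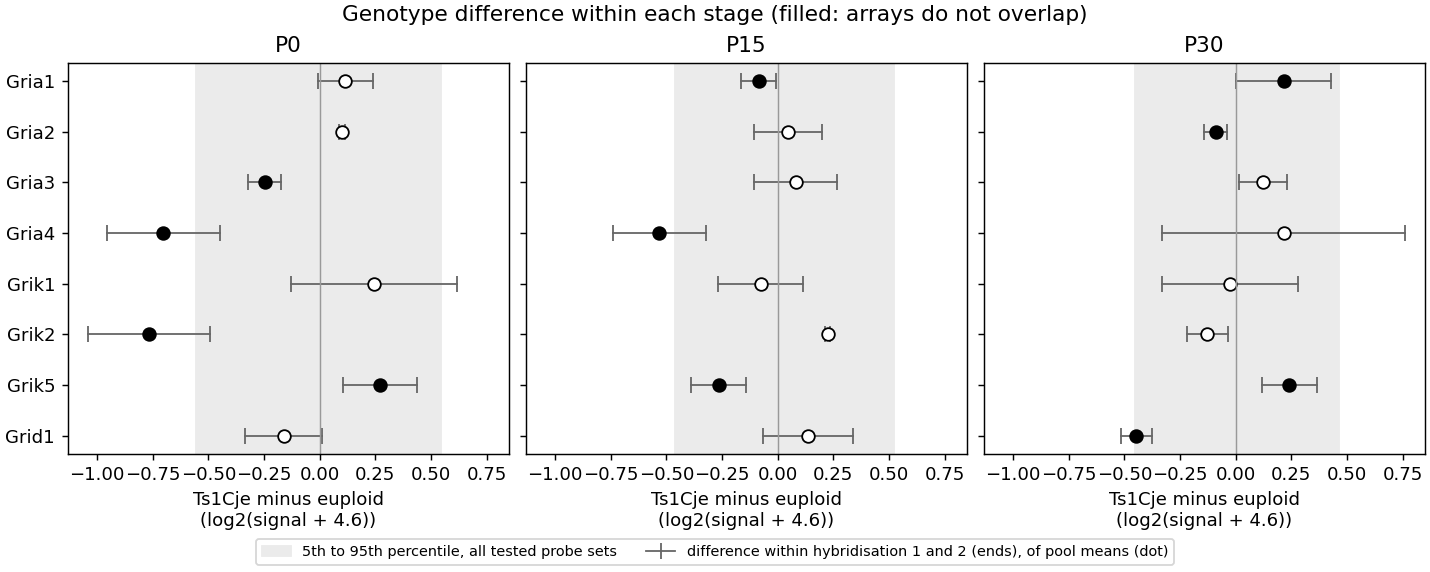
Ts1Cje minus euploid difference of the 8 genes at P0, P15 and P30 on the log2(signal + 4.6) scale; dots are differences of pool means, bar ends the differences within hybridisation 1 and within hybridisation 2, and filled dots mark genes whose arrays do not overlap. Grey bands hold the 5th to 95th percentile of all 7453 probe sets, and Grik2 and Gria4 lie outside it at P0 and Gria4 at P15.

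The genes whose course over the 6 pools was most like that of each receptor gene were found by the root mean square difference of mean-centred log2 values among 5667 other genes. For Gria1 they were Ypel3, Tnip1 and Miga2 (0.0586 to 0.0664, where the median gene had 0.451). For Gria2 they were Mrpl28, Rrbp1 and Mrps33 (0.0259 to 0.0475, median 0.299), 2 of them mitochondrial ribosomal proteins. Gria3 was closest to Krt17, B4galt6 and Gpn3 (0.0381 to 0.0577), and Gria4 to Atp1b2, a subunit of the sodium pump, Gadd45b and Usp2 (0.0881 to 0.176). Grik1 was closest to Armc10, Ptprz1 and Ndn (0.0571 to 0.0688), and Grik2 to Mypop, Asrgl1 and Ndrg2 (0.0763 to 0.0987). Grik5 was closest to Eid1, Ccna2 and Cdca8 (0.0556 to 0.0635), of which Ccna2 and Cdca8 act in cell division. Grid1 was closest to Macir, Sae1 and Ppm1g (0.0499 to 0.0718). The named genes have the smallest of 5667 distances, so they lie below the median by selection. None of these neighbours was itself a receptor gene of the family. Each distance rests on 6 pools of 3 stages, Krt17 on a probe set of the less specific r design, and Ptprz1 on one of the f design.

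The partners of these receptors were followed through 7 lists of auxiliary subunits, scaffolds, ligands, editing enzymes, transporters and kinases, in which 32 genes passed the filter. Between P0 and P15, 9 of the 32 were called higher and 3 lower, where 13.6% and 14.4% of all probe sets were. Between P15 and P30, 1 was called higher and 0 lower, where 1.61% and 3.13% were. Between P0 and P30, 13 were called higher and 7 lower, where 19.4% and 19.6% were. Their median P0 to P30 difference was 0.35, against 0.036 for all probe sets. Both measured AMPA auxiliary subunits changed, in opposite directions. Cacng2, or stargazin, which brings AMPA receptors to the surface of granule cells, went from 98.7 to 130.5 at P0 to 205.6 to 321.2 at P15 (1.11 ± 0.19, adjusted p = 0.00306). Cnih2, a cornichon that aids export of AMPA receptors, went from 412.2 to 522.6 at P0 to 189.4 to 218.5 at P15 and 116.4 to 141.8 at P30 (-1.18 ± 0.15 from P0 to P15, adjusted p = 0.000773). Neither overlapped between P0 and the later stages.

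Of 12 scaffold and trafficking genes, 2 were called higher and 1 lower between P0 and P15, a share near the 28% called over all probe sets. Nptx1, a pentraxin that clusters AMPA receptors, rose by 2.39 ± 0.17 (adjusted p = 4.31e-05) and again by 0.79 ± 0.17 from P15 to P30 (adjusted p = 0.0379), the one call of the later interval. Dlg1, or SAP97, a scaffold that binds Gria1, rose by 1.05 ± 0.17 (adjusted p = 0.00241). Lin7c, a small PDZ scaffold, fell by 0.50 ± 0.16 (adjusted p = 0.0479), with arrays that overlapped (1090.4 to 1537 at P0, 760.4 to 1202.9 at P15). A dimmer Lin7c probe set had -0.39 and was not called by limma (adjusted p = 0.259). Pick1 and Dlg4, further scaffolds of glutamate receptors, had 0.019 ± 0.20 and 0.0073 ± 0.19 and were not called, and these, like Adar below, were named after their values were seen.

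Adarb1, the enzyme that edits the Gria2 transcript at the site controlling calcium entry, rose between P0 and P15. Gria2 did not change by the test in its brightest probe set, while its probe set 92945_at was called lower at P30. Adarb1 went from 188.9 to 219.5 at P0 to 593.7 to 672 at P15 and 674.6 to 811.7 at P30. The difference was 1.60 ± 0.14 from P0 to P15 (adjusted p = 0.000132), with 1.03 in its other probe set (adjusted p = 0.00139). Adar, the other measured editing enzyme, had 0.031 ± 0.25 (adjusted p = 0.937). Editing itself is not visible to these probe sets.

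Cbln1, a cerebellin released by granule cells, rose from 362.1 to 457.1 at P0 to 1730.3 to 2339.6 at P15 (2.31 ± 0.13, adjusted p = 1.36e-05), the one call among 3 delta receptor partners. Slc1a6, the glutamate transporter of Purkinje cells, rose by 2.40 ± 0.14 (adjusted p = 1.65e-05), the one call among 4 genes of glutamate supply and clearance. Over all probe sets 28% were called between P0 and P15 (13.6% higher and 14.4% lower), so 1 call in lists this short is near that share. Cbln1 and Slc1a6 also stand in the granule and Purkinje cell marker lists. Among 6 kinases and plasticity genes, Homer3, a Purkinje cell scaffold, rose by 2.25 ± 0.17, the calcium-dependent kinases Camk4 by 1.40 ± 0.23 and Camk2b by 0.54 ± 0.14, and Ppp2ca, a phosphatase, fell by 0.64 ± 0.20 (adjusted p = 0.0469). Camk4 averaged 16.8 at P0, below the filter limit, and passed only through its signal at P15 and P30. Of the kainate receptor partners 3 passed the filter, and none was called by limma between P0 and P15 (adjusted p = 0.0608 to 0.295), though a dimmer Actn1 probe set was (-0.73, adjusted p = 0.0303). All 3, Cask, Actn1 and Ctnnb1, were called lower between P0 and P30, where 19.6% of all probe sets were. These genes were named after their values were seen. Their differences were -0.95 ± 0.16, -0.68 ± 0.16 and -0.63 ± 0.19. Those of Cask and Actn1 rest on probe sets of the f design, which may share probes with related sequences.

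**Figure D4:**
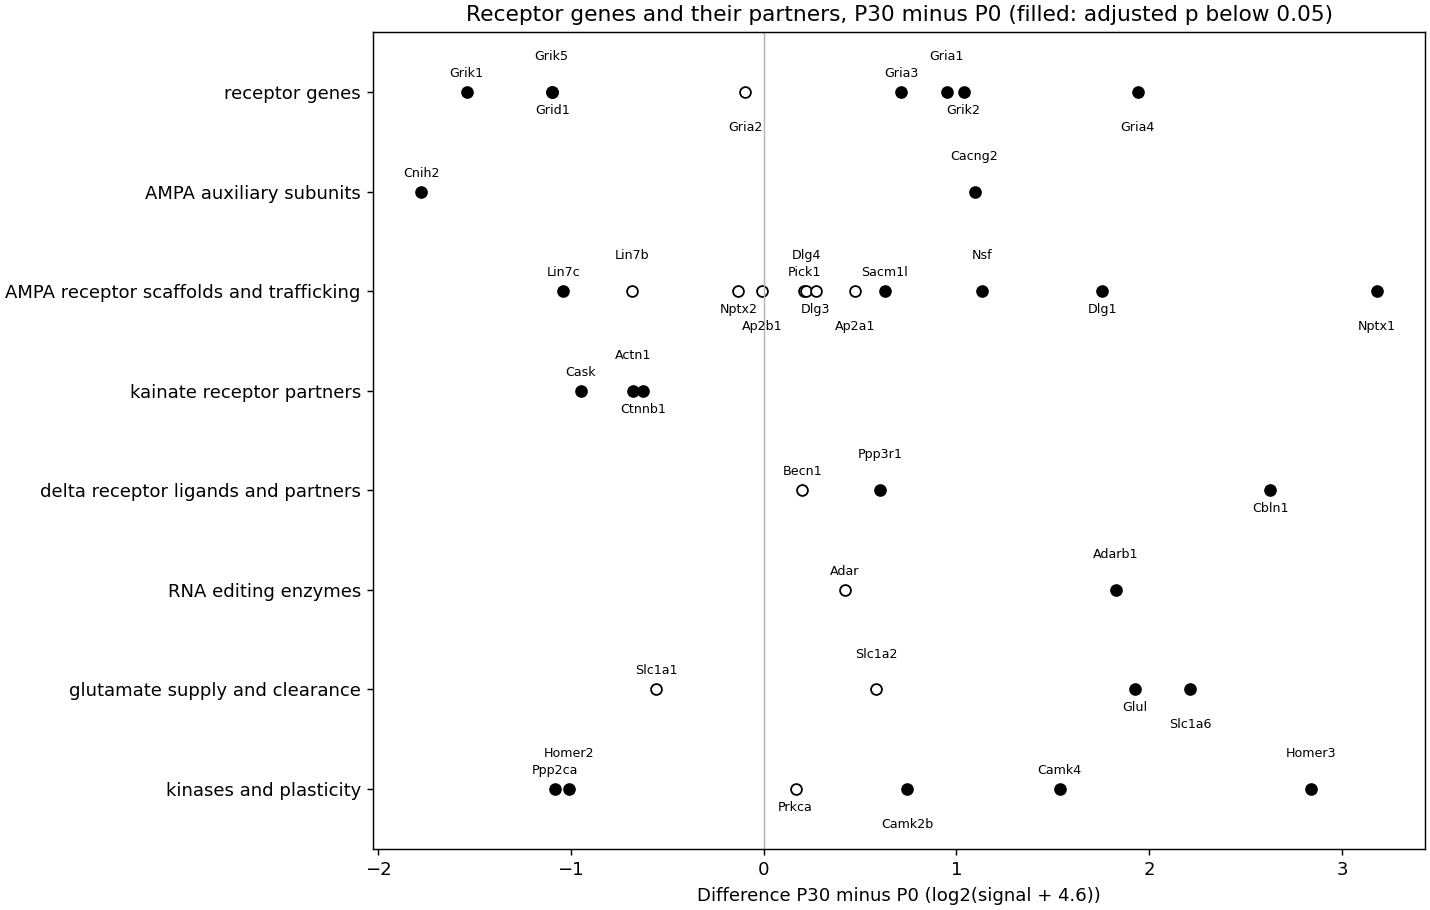
Difference from P0 to P30 on the log2(signal + 4.6) scale for the 8 receptor genes and the tested members of the 7 partner lists, with filled points for an adjusted p below 0.05. Nptx1, Homer3 and Cbln1 lie farthest to the right, and Cnih2 and Grik1 farthest to the left.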

How the data were processed

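The authors deposited linear intensity values made with MAS5, per the submitters' processing notes, 1 value per probe set and array. The sources used here do not give its version or settings. The mean of each array after trimming 2% at each end was 100.05 to 100.06, and no further scaling was applied. Values were taken as log2(signal + 4.6), the 20th percentile of all values, and the 2 hybridisations of a pool were averaged. The 66 control probe sets and those with a mean below the 40th percentile (20.1) were left out. Symbols came from the platform annotation (10855 probe sets with 1 symbol, 396 with several, 1237 with none), of which 10839 matched a RefSeq gene table (GRCm38.p6).

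Limma 3.58.1 in R 4.3.3 fitted genotype and stage over 6 pools (2 residual degrees of freedom, prior 6.39, eBayes with trend), and a second model added genotype by day (1 residual, prior 9.51). Tests were two-sided with Benjamini-Hochberg adjustment over all 7453 probe sets and a threshold of 0.05. The p-values reflect how far these pools spread, which may be partly technical, and precision is limited by the few pools and arrays. An exact permutation of the 3 Ts1Cje against the 3 euploid pools, without regard to stage, cannot go below 0.1. Stage comparisons set only 2 pools against 2, to which this limit does not apply. The procedure was tested on simulated data. The receptor genes, partner and marker lists were chosen with earlier results of these data known. All receptor probe sets are named. Of each partner list, up to 3 called rises and 3 called falls of either interval are named, and of similar courses the 3 nearest genes. Promoter letters were searched with python 3.11.15, and figures drawn with matplotlib 3.10.9. Alternatives were another pseudocount, filter, scaling or moderation, single hybridisations, each pool left out, fits on 12 arrays and the mean of all probe sets of a gene.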

Additional observations from a re-analysis of the deposited data

Results flagged for a closer look

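Gria1 (92943_at) and Grik5 (104409_at) had genotype differences whose arrays did not overlap in opposite directions at different stages. For Gria1 the Ts1Cje arrays lay below the euploid ones at P15 (-0.085) and above them at P30 (0.22), a shift of 0.30 on the log2 scale. Its other probe set was higher at P15 (0.28) and lower at P30 (-0.22), the opposite order. For Grik5 the Ts1Cje arrays lay above at P0 (0.27), below at P15 (-0.27) and above at P30 (0.24), shifts of -0.54 from P0 to P15 and 0.51 from P15 to P30. Its other probe set, 162074_r_at, had the opposite sign at every stage: -0.58 at P0, 0.88 at P15 (without overlap) and -0.26 at P30. These differences between stages were not tested, since each stage holds 1 pool per genotype. The model with genotype by day, which sees only a steady change, gave 0.10 ± 0.38 for Gria1 and -0.030 ± 0.42 for Grik5 (limma adjusted p = 1 for both).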

How the results depend on the processing

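The calls rest on 6 pools, so the prior spread of limma carries much of each test, and dim probe sets (Gria4 at P0, Gria3, Grik1 at P30) are limited by signal near the filter level. Of the alternatives run for each gene, the P0 to P30 calls of Gria1, Grik1, Grik5 and Grid1 and the P0 to P15 call of Grik1 held in all. The P0 to P30 call of Gria4 also held in all 16 of its alternatives. Gria4 had passed the filter only through its signal at P15 and P30, so this is no support. The other calls were lost under 1 to 6 alternatives each, and the cause was not tested. Only without the signal filter did the median of all probe sets move past 0.1 (-0.112 from P0 to P15 and 0.111 from P15 to P30). With the filter at the 60th percentile 3 of the genes were left to test, and 2 were called both from P0 to P15 and from P0 to P30. From P0 to P15, 3 of the 8 were called with hybridisation 2 alone, and 3 (without Ts1Cje P0) to 5 with 1 pool left out. From P15 to P30, 1 was called with hybridisation 1 alone (Grik1) and 1 with 12 arrays and the pool as a random block (Gria1).

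Over all probe sets, the 353 called from P15 to P30 became 199 without the signal filter, 183 without the trend, 746 with hybridisation 1, 98 with hybridisation 2, 1016 on 12 arrays, and 141 (without Ts1Cje P30) to 508 with 1 pool left out. From P0 to P30 the 2904 became 1830 to 3293 with 1 pool left out. For genotype the 0 became 14 on 12 arrays and 0 to 6 with 1 pool left out, and for genotype by day 9 with hybridisation 2 and 4 on 12 arrays. Same-numbered arrays shared part of their deviations from the pool means in some pairs of pools and not in others. These deviations correlated at -0.124 to 0.354 over 15 pairs of pools (median 0.0707), 7 of them above 0.1. With the number as a replicate block, 898 probe sets were called from P15 to P30 and 6 for genotype, and the Gria1 call from P15 to P30 seen on 12 arrays (adjusted p = 0.0356) was lost (0.40, adjusted p = 0.0512). Against the 6-pool model, the block changed no call of the 8 genes.

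Directions turned only for values that were not called. For genotype, Gria2 became -0.0038 with quantile normalisation, -0.010 with hybridisation 1 and -0.041 as the mean of its probe sets, Grik5 -0.056 with hybridisation 1, Gria1 -0.0038 and Gria3 0.059 with hybridisation 2. With 1 pool left out, genotype values ranged from -0.022 to 0.074 for Gria2, -0.083 to 0.10 for Gria3, -0.050 to 0.11 for Grik1, -0.45 to 0.049 for Grik2 and -0.012 to 0.26 for Grik5, the turned sign in each being that without a P0 pool. For genotype by day, hybridisation 1 gave 0.41 for Grik1 and 0.013 for Grik5, and the mean of its probe sets 0.15 for Grik5. With hybridisation 2, Gria3 had -0.039 from P0 to P15 and Grik1 0.28 from P15 to P30. From P15 to P30 with 1 pool left out, Grik2 ranged from -0.12 (without euploid P15) to 0.55, and Grid1 from -0.40 to 0.037 (without Ts1Cje P15). Leaving out a pool was not run for genotype by day.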
